A study of Mus musculus with 2 samples.

Results

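The genes described here are those of the semaphorin, ephrin, slit and netrin guidance systems in the wall of the mouse thoracic aorta. They were taken by symbol from the feature list: semaphorins of classes 3 to 7, plexins, neuropilins, Slits, Robos, Eph receptors, ephrins, netrins and Unc5 receptors. Of 32287 features, 73 matched, and the 62 with at least 20 unique molecular identifiers (UMIs, tags that count RNA molecules once each) in the analysed cells are described. Of the 73, 5 share only the letters of the rule and belong to none of the families: Unc50, Unc5cl and the antisense transcripts Plxna4os1, Plxna4os2 and Plxna4os3. The 11 genes below the limit were Robo2 (19 UMIs), Plxnb3 (11), Plxna4os2 (6), Slit1 (5), Ntn5 (4), Unc5a (3), Epha10 (2) and Epha8 (1), with 0 UMIs for Epha6, Plxna4os3 and Robo3. Just above it stood Efnb3 (21), Sema5b (23), Efna3 (28) and Epha5 (28).

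The cells came from the thoracic aortas of 2 mice of strain C57BL/6J and genotype GFPiSMC (WT), killed at 12 weeks of age. The animals carry a Cre recombinase that tamoxifen activates under the Myh11 promoter of smooth muscle cells (SMCs) and an mT/mG reporter that Cre turns from tdTomato to eGFP, and both had received tamoxifen at 1 mg per day for 5 days at 3 weeks. Viable single cells from a cold enzymatic digestion were sorted without regard to eGFP, and each aorta gave 1 library of 3′ ends. With 1 group of 2 libraries, cell types of the same aortas were set against each other, to ask which cells of the WT wall hold transcripts for which guidance ligand and receptor.

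The 6539 analysed cells of aorta 1 and 4614 of aorta 2 had medians of 5671 and 5396.5 UMIs, and guidance genes made up 0.147% and 0.159% of all UMIs. Cells were named from markers as SMC-like (2224 and 1611 cells), fibroblast-like (1633 and 1141), endothelial-like (785 and 727), myeloid-like (963 and 598), lymphocyte-like (623 and 363) and mesothelial-like (275 and 160), written below without "-like". A level is given in CPM, the UMIs of a gene per 1000000 UMIs of that cell type in an aorta, first for aorta 1 and then for aorta 2. The summed markers of each type were highest in that type, but SMC marker RNA was found in all of them: the summed level of its 6 markers was 42042 and 40071 CPM in SMCs against 2686 and 2647 in fibroblasts and 1140 and 1472 in lymphocytes. Mesothelial cells held 5778 and 6808 CPM of the 6 fibroblast markers, against 27718 and 26603 CPM in fibroblasts. The 2 libraries shared 10 barcodes among the analysed cells.

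Guidance molecules are cues best known for steering growing axons, and they also pattern blood vessels. Class 3 semaphorins are secreted and bind neuropilins, which signal through plexins, whereas semaphorins of classes 4 to 7 are membrane-bound and bind plexins directly. Slits are secreted ligands of Robo receptors, and netrins are laminin-like secreted proteins read by Unc5 receptors, Dcc and neogenin. Ephrins are tethered to the cell surface and activate Eph receptor kinases on the neighbouring cell, with signals running in both directions. In vessels, ephrin-B2 is a classical mark of arterial endothelium and its receptor EphB4 of venous endothelium.

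Nearly every family was divided between cell types. Of the 62 described genes, 19 had their highest mean level in endothelial cells, 16 in mesothelial cells, 12 in fibroblasts, 6 in SMCs, 5 in myeloid cells and 4 in lymphocytes. These counts include Unc50 (SMCs), Plxna4os1 (myeloid cells) and Unc5cl (lymphocytes), which belong to no family. Efna3, Sema4g and Sema5b, also highest in SMCs, had means there of only 0.835, 1.47 and 0.486 CPM. The highest type was another in 1 of the aortas for 7 genes (Sema4c, Sema5b, Slit3, Ntn3, Plxna3, Efna4 and Unc50). By family, the described genes were all 20 semaphorins, 8 of 9 plexins, both neuropilins, 2 of 3 Slits, 2 of 4 Robos, 11 of 14 Eph receptors, all 8 ephrins, 3 of 4 netrins and 3 of 4 Unc5 receptors.

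**Figure D1:**
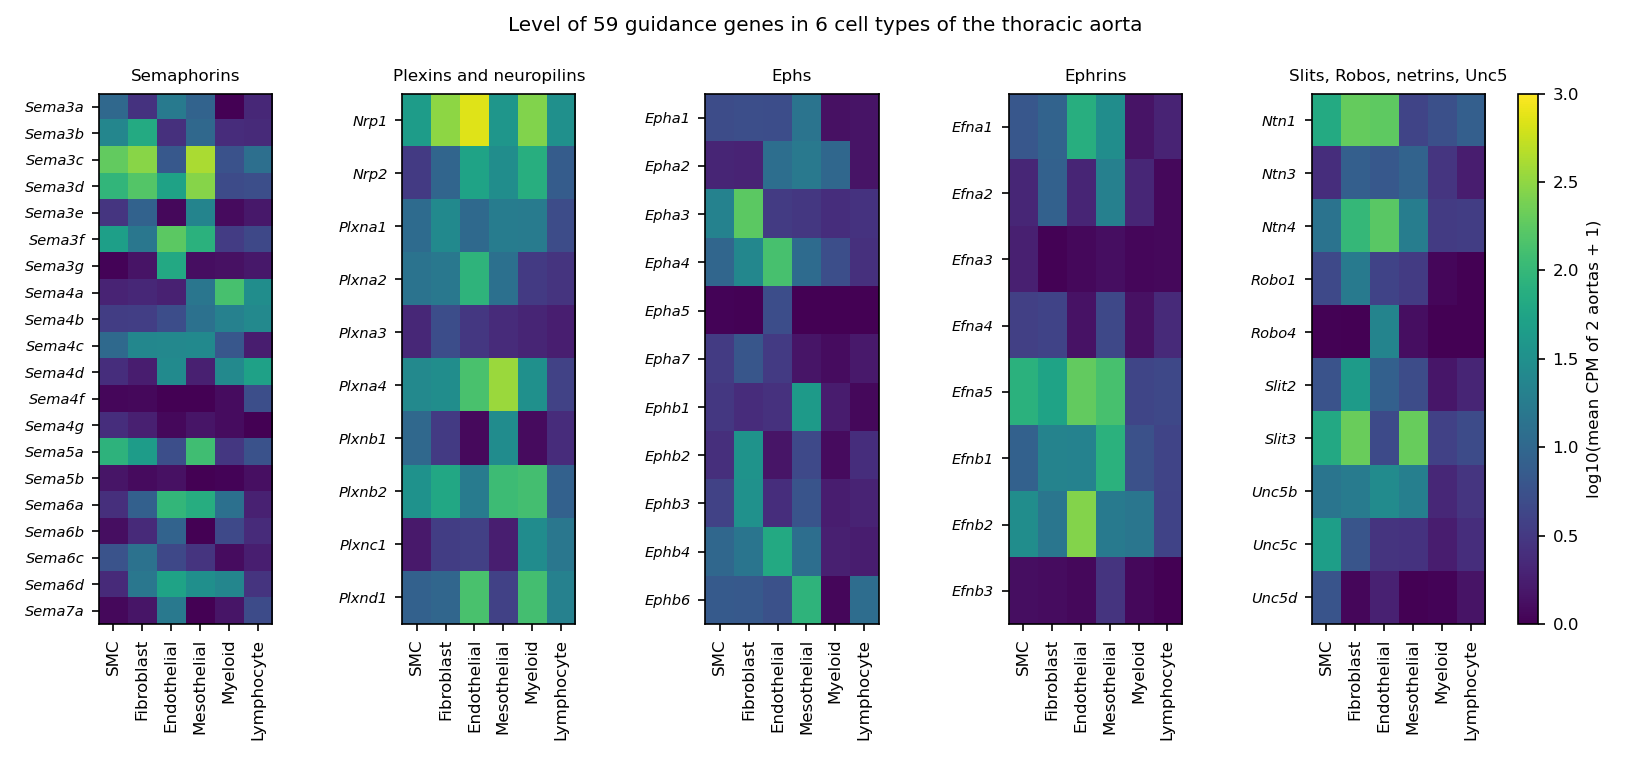
Mean level of the 59 described genes that belong to a guidance family (rows) in 6 cell types (columns), colored as log10(mean CPM of 2 aortas + 1). Nrp1 in endothelial cells, at a mean of 717 CPM, is the brightest cell, and Sema3c is bright in SMCs, fibroblasts and mesothelial cells but dark in endothelial cells (mean 5.73 CPM).

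The genes that were nearest to being restricted to a single type are shown by their promoters, because they define the ends of the pattern. At least 85% of the UMIs of 5 family genes with 100 or more UMIs came from 1 type: Robo4 (97.1% of its UMIs in endothelial cells of aorta 1 and all of them in aorta 2), Sema3g (94.9% and 96.6%, endothelial), Ephb2 (88.8% and 91.1%, fibroblast), Unc5c (92.6% and 90.8%, SMC) and Unc5d (93.8% and 92.9%, SMC). RefSeq promoters of GRCm38.p6, from 250 bases before to 50 bases after the start, were at hand for 4 of them, and for 51 of the 59 family genes. They are printed 5′ to 3′ in the direction of the gene, with matches to an ETS core (CGGAAG), an RBPJ core (TGGGAA) or a CArG box in capitals on either strand.

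Robo4, chr9:37401722-37402021, plus strand: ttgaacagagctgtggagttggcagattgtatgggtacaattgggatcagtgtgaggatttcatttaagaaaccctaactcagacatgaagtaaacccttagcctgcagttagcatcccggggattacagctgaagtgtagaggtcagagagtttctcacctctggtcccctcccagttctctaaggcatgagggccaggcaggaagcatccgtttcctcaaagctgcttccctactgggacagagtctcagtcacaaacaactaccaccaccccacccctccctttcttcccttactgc
Sema3g, chr14:31217623-31217922, plus strand: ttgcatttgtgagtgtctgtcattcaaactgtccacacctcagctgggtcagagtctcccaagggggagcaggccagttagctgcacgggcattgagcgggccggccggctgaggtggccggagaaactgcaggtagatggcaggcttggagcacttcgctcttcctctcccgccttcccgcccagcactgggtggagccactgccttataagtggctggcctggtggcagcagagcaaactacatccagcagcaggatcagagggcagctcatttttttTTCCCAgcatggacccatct
Ephb2, chr4:136835963-136836262, minus strand: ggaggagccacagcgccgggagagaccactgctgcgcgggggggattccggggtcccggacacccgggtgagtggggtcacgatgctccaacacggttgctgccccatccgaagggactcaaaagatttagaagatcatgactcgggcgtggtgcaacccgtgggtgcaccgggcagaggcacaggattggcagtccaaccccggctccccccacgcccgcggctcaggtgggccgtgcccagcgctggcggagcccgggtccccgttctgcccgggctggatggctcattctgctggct
Unc5c, chr3:141465314-141465613, plus strand: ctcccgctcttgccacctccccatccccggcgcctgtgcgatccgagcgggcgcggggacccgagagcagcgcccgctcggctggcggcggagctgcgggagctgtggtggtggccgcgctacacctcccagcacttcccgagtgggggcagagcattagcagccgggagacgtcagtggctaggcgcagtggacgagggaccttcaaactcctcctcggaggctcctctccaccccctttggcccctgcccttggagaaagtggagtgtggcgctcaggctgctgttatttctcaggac

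The 2 endothelial promoters held 2 (Robo4) and 8 (Sema3g) CpG dinucleotides, whereas those of Ephb2 and Unc5c held 24 each, against a median of 7 over 32851 promoters and 20 over the 65 of the described guidance genes. The single motif match was an RBPJ core in the Sema3g promoter, a motif that 25.6% of all promoters held. An ETS core was held by 16.9% and a CArG box by 1.63% of all promoters. Transcript levels alone were measured, so these letters describe the promoters and say nothing of which factor acts there.

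Among the secreted ligands, the class 3 semaphorins followed 3 patterns. Sema3c, the semaphorin with the most UMIs (11462; ENSMUSG00000028780, chr5:17574281-17730268, plus strand), guides cardiac neural crest cells in the embryo; positions are those of GENCODE vM21 on GRCm38. Its level was 432 and 407 CPM in mesothelial cells, 234 and 342 in fibroblasts and 184 and 198 in SMCs. In endothelial cells it was 6.29 and 5.17 CPM, below SMCs with a log2 difference of -5.30 ± 0.25 (SE, adjusted p = 2.08e-11) in edgeR's quasi-likelihood test on the UMIs summed by aorta and type. The endothelial level was far under that of the other 3 types in each aorta. A gene was called where its adjusted p was under 0.05 and its log2 difference, the log2 of the ratio of 2 levels, was beyond 1 in size, and SMCs and fibroblasts stayed within that limit for Sema3c, with a log2 difference of -0.44 ± 0.14 (SE, adjusted p = 0.0168). Its close relative Sema3d had the same order, with 278 and 292 CPM in mesothelial cells, 149 and 167 in fibroblasts, 86.9 and 98.5 in SMCs and 33.6 and 70.8 in endothelial cells. That endothelial level came mainly from a minority of lymphatic-like cells described below.

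Sema3f and Sema3g were instead highest in the endothelium. Sema3f, which binds mainly neuropilin-2, reached 167 and 185 CPM in endothelial cells, 79.4 and 83 in mesothelial cells, 48.3 and 49.1 in SMCs and 15.5 and 13.7 in fibroblasts, and SMCs lay above fibroblasts with a log2 difference of 1.87 ± 0.12 (SE, adjusted p = 9.24e-10). Sema3g was at 70.4 and 55.7 CPM in endothelial cells and at a mean of no more than 0.553 in each of the other 5 types, where its ratio to the endothelial level was within the range that endothelial markers gave. Sema3b, at 67.2 and 69 CPM in fibroblasts and 21.6 and 24 in SMCs, was lower in endothelial cells (1.57 and 1.59 CPM) with a log2 difference of -4.09 ± 0.27 (SE, adjusted p = 1.51e-09) against SMCs. The remaining members were low: Sema3e reached 24.8 and 18.6 CPM in mesothelial cells, and Sema3a reached 10.7 and 21.1 in endothelial cells and 8 and 10.9 in SMCs, in both mostly through single subsets described below.

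The membrane-bound semaphorins divided between leukocytes, endothelium and the stromal cells. Sema4a, which acts in immune cell contacts, was at 128 and 138 CPM in myeloid cells and 25 and 32.6 in lymphocytes, against 12.7 and 15.6 in mesothelial cells and means of no more than 1.17 in the other 3 types. Sema4d (CD100, the ligand of plexin-B1) was at 55.3 and 45.9 CPM in lymphocytes, 28.9 and 23.5 in endothelial cells and 25.1 and 24.8 in myeloid cells. Endothelial cells exceeded fibroblasts in Sema4d with a log2 difference of 4.96 ± 0.31 (SE, adjusted p = 1.09e-09). Sema4b was also a leukocyte gene, with 27.6 and 22.7 CPM in lymphocytes and 18.1 and 21.3 in myeloid cells.

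Sema6a, Sema6d and Sema7a were highest in the endothelium. Sema6a was at 99.7 and 92.3 CPM in endothelial and 71.6 and 73.2 in mesothelial cells against 1.8 and 1.29 in SMCs, and Sema6d was at 60.0 and 48.9 in endothelial cells against 1.74 and 0.776 in SMCs. Sema7a, a lipid-anchored semaphorin, was at 14.5 and 16.3 CPM in endothelial cells and 4.33 and 3.32 in lymphocytes. By contrast, Sema5a, a transmembrane protein with thrombospondin repeats, was at 112 and 125 CPM in mesothelial cells, 85 and 86.5 in SMCs and 46.3 and 43.4 in fibroblasts but at 5.34 and 3.18 in endothelial cells, where it was lower than in SMCs with a log2 difference of -4.54 ± 0.18 (SE, adjusted p = 2.79e-12). The 6 remaining semaphorins of classes 4 to 6 (Sema4c, Sema4f, Sema4g, Sema5b, Sema6b and Sema6c) had means of no more than 25.3 CPM in any type.

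Of the semaphorin receptors, Nrp1 (13409 UMIs; ENSMUSG00000025810, chr8:128358604-128503363, plus strand), which binds both class 3 semaphorins and VEGF, had the most UMIs of all guidance genes. Its level was 716 and 719 CPM in endothelial cells, 293 and 323 in fibroblasts, 268 and 272 in myeloid cells and 38.2 and 49.9 in SMCs. The fibroblast level was above the myeloid level in both aortas, and SMCs were lower than fibroblasts with a log2 difference of -2.66 ± 0.15 (SE, adjusted p = 3.37e-10). Endothelial cells were higher than fibroblasts with a log2 difference of 1.11 ± 0.14 (SE, adjusted p = 7.66e-06), a value that was 0.27 and no longer passed when mixed, small and low-UMI subclusters were left out. Nrp2, the receptor of Sema3f, was at 72.1 and 76.4 CPM in myeloid cells, 42.4 and 65.2 in endothelial cells and 2.22 and 2.24 in SMCs. Endothelial cells exceeded SMCs in Nrp2 with a log2 difference of 4.29 ± 0.21 (SE, adjusted p = 4.91e-11), a level that came mainly from a minority of endothelial cells described below.

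Plexins were present in every type but by different members. Plxnd1, the vascular plexin that reads Sema3e, was at 144 and 128 CPM in endothelial cells and 133 and 119 in myeloid cells, with means of no more than 19.6 CPM elsewhere. Plxna2 was at 79.5 and 95.4 CPM in endothelial cells and 15.1 and 10.9 in SMCs, a log2 difference of 2.46 ± 0.18 (SE, adjusted p = 7.87e-09). Plxna4 was highest in mesothelial cells (356 and 357 CPM), followed by endothelial cells (141 and 133 CPM), with 25 and 24.2 CPM in SMCs.

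Plxnb2, a receptor of class 4 semaphorins and the plexin with the most UMIs (3665), was at 127 and 123 CPM in myeloid cells, 114 and 114 in mesothelial cells, 58.7 and 65.9 in fibroblasts and 31.8 and 34.3 in SMCs. Plxnb1 was at 20.9 and 35.2 CPM in mesothelial cells and 9.38 and 9.48 in SMCs against 0 and 0.398 in endothelial cells. Plxnc1, the receptor of Sema7a, was a leukocyte gene at 26.4 and 29.7 CPM in myeloid cells and 17 and 12.2 in lymphocytes. The antisense transcript Plxna4os1, which only shares the letters of its neighbour, was at 43.4 and 41.2 CPM in myeloid cells. The sources used here do not say whether strand was used in the counting, so reads of the 2 strands at this locus may not be told apart.

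In the Slit and Robo system, both ligands were found in fibroblasts. Slit3 (5906 UMIs; ENSMUSG00000056427, chr11:35121224-35708507, plus strand) was at 196 and 213 CPM in fibroblasts, 209 and 190.4 in mesothelial cells and 61 and 67.2 in SMCs, and at 3.77 and 3.58 in endothelial cells. Fibroblasts and mesothelial cells changed places between the aortas and did not differ beyond their spread, and SMCs were lower than fibroblasts with a log2 difference of -1.52 ± 0.09 (SE, adjusted p = 7.5e-10). Slit2 was at 45.8 and 42 CPM in fibroblasts and 3.91 and 5.78 in SMCs, a log2 difference of -3.06 ± 0.17 (SE, adjusted p = 2.78e-10). The receptors were sparse. Robo1, the Robo with the most UMIs (395), was at 14.5 and 17.9 CPM in fibroblasts and 2.94 and 4.22 in SMCs, and Robo4, the endothelial Robo, was at 21.4 and 21.5 in endothelial cells. Against fibroblasts, where no UMI of Robo4 was counted in either aorta, the endothelial mean was at least 122-fold higher, taking 3 UMIs over both aortas as the limit that a count of 0 allows.

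Netrin transcripts were found in fibroblasts and endothelium. Ntn1 (6289 UMIs; ENSMUSG00000020902, chr11:68209364-68400823, minus strand) was at 186 and 204 CPM in fibroblasts, 173 and 181 in endothelial cells and 66.2 and 67.7 in SMCs. Endothelial cells and fibroblasts stayed within the fold limit (log2 difference -0.25 ± 0.09 SE, adjusted p = 0.0242), and SMCs were lower than fibroblasts with a log2 difference of -1.39 ± 0.08 (SE, adjusted p = 6.07e-10). Ntn4, which is deposited in basement membranes, was at 178 and 163 CPM in endothelial cells, 101 and 97.7 in fibroblasts and 13.8 and 12.2 in SMCs.

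Among the netrin receptors, Unc5c (1430 UMIs; ENSMUSG00000059921, chr3:141465216-141834924, plus strand) was a gene of SMCs. Its level was 46.9 and 46 CPM in SMCs and 4.91 and 5.48 in fibroblasts, a log2 difference of 3.32 ± 0.17 (SE, adjusted p = 7.5e-11), and its ratio to the SMC level in each of the other 5 types lay within the range of the SMC markers. Unc5d had the same distribution at a lower level (4.57 and 5.6 CPM in SMCs, means of no more than 0.911 CPM elsewhere). Unc5b, the vascular member of the family, was spread over endothelial cells (25.2 and 28.2 CPM), mesothelial cells (24.8 and 12.7 CPM), fibroblasts (21.6 and 12.3 CPM) and SMCs (13.7 and 14 CPM), and none of the 3 pairwise differences among endothelial cells, fibroblasts and SMCs passed the threshold.

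Eph receptors of both classes were found in fibroblasts, endothelium and mesothelium. Epha3 (3570 UMIs; ENSMUSG00000052504, chr16:63543534-63864175, minus strand), a receptor of A-type ephrins, was at 171 and 177 CPM in fibroblasts and 16.2 and 24.7 in SMCs, a log2 difference of -2.97 ± 0.15 (SE, adjusted p = 5.04e-11). Ephb2 and Ephb3, of the B class, were also highest in fibroblasts: Ephb2 was at 33.6 and 33.8 CPM in fibroblasts and 1.86 and 1.21 in SMCs, and Ephb3 at 29.1 and 35.3 CPM and 2.46 and 3.28 CPM. The levels of Epha3 in endothelial, mesothelial, myeloid and lymphoid cells, and those of Ephb2 in SMCs, endothelial, mesothelial and myeloid cells, were within the range that fibroblast markers gave in those types. In mesothelial cells the top of that range was set by Dcn alone, as given below.

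The endothelium held Epha4, at 142 and 125 CPM against 24.3 and 23.2 CPM in fibroblasts, and Ephb4, the venous receptor, at 64.1 and 66 CPM against 9.68 and 8.45 in SMCs. Epha5 was counted at 6.92 and 1.19 CPM in endothelial cells and at a mean of no more than 0.0601 CPM elsewhere. Mesothelial cells held Ephb6, a receptor without kinase activity, at 72.2 and 103 CPM, and Ephb1 at 40.2 and 44.9 CPM. For Ephb1 the means of the other 5 types were 2.09 CPM or less.

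On the ephrin side, Efnb2 (2813 UMIs; ENSMUSG00000001300, chr8:8617434-8661242, minus strand) was at 293 and 256 CPM in endothelial cells, 26.2 and 30.8 in SMCs and 13.8 and 14.4 in fibroblasts. Endothelial cells exceeded SMCs with a log2 difference of 3.01 ± 0.11 (SE, adjusted p = 1.06e-12), and SMCs exceeded fibroblasts with a log2 difference of 1.16 ± 0.13 (SE, adjusted p = 1.11e-06). Efna5, the ephrin with the most UMIs (4701; ENSMUSG00000048915, chr17:62604184-62881317, minus strand), was shared by endothelial cells (179.5 and 201 CPM), mesothelial cells (125 and 138 CPM), SMCs (74.6 and 89.2 CPM) and fibroblasts (53.1 and 55.8 CPM). SMCs were above fibroblasts in Efna5 in both aortas, within the fold limit (log2 difference 0.73 ± 0.10 SE, adjusted p = 1.06e-05). Efna1, an ephrin induced by inflammation in endothelium, was at 61.3 and 88.3 CPM in endothelial cells and 5.17 and 5.86 in SMCs. Mesothelial cells led for Efnb1 (86.5 and 76.2 CPM, against 21.4 and 20.2 CPM in fibroblasts) and Efna2 (14.9 and 23.4 CPM).

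Mesothelial cells, the lining of the serous surface, held the highest mean of 16 described genes, among them Sema3c, Sema3d, Sema5a, Plxna4, Ephb6 and Efnb1. They are the shallowest of the 6 types in total UMIs (1814572 and 1024017), and the test on their sums has the precision of these 2 totals. Sema3e, the ligand of Plxnd1, and Plxnb1 were above the mean of the other types, Sema3e with a log2 difference of 4.66 ± 0.41 (SE, adjusted p = 9.25e-08) and Plxnb1 with a log2 difference of 4.57 ± 0.44 (SE, adjusted p = 3.06e-07).

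Shares of cells with a UMI are given for 4 of these genes. A UMI of Nrp1 was found in 67.5% and 63.7% of endothelial cells, and in 39.2% and 39.3% when each cell was thinned to 1000 UMIs. Fibroblasts, which are deeper, had a higher unthinned share of 69.6% and 70.5% but a lower thinned share of 25.9% and 26%, and myeloid cells had 62.8% and 59.4% before and 24% and 25.8% after thinning. The thinned share in lymphocytes, a type not expected to express it widely, was 2.09% and 2.48% (7.22% and 10.5% unthinned). Endothelial cells had median depths of 3672 and 3024 UMIs and lymphocytes of 4098 and 3907. For Efnb2 the thinned shares were 21.8% and 20.8% of endothelial cells. Before thinning they were 57.8% and 48.8% in endothelial cells and 0.642% and 0.826% in lymphocytes. Epha3 was found in 15.6% and 15.7% of fibroblasts and 0.161% and 0.551% of lymphocytes after thinning, from 51.4% and 52% and 0.321% and 1.38% before it, with median depths of 5925 and 5743 UMIs in fibroblasts. Unc5c was found in 3.87% and 4.16% of SMCs after thinning and 25% and 24.5% before it, at median depths of 7724 and 7487 UMIs, against 0.642% and 0.826% of unthinned lymphocytes.

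Low levels outside the highest type can be free RNA taken up in droplets. For each described gene, its level in each other type, as a share of the level in its highest type, was set beside the range that the markers of that highest type gave. In both aortas, 67 of 310 such levels were at or under the top of the marker range, 19 of them in lymphocytes and 20 in mesothelial cells. The other 243 were above it in at least 1 aorta. The top can be set by 1 marker. For fibroblast genes in mesothelial cells it was Dcn, at 5178 and 6038 CPM there against 15022 and 14124 CPM in fibroblasts. Lum was at 2.76 and 7.81 CPM against 1457 and 1268 CPM. The source of the mesothelial Dcn was not tested, so a level under this top does not show free RNA.

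Tests of single types against the mean of the other 5 (the mean of their log levels, so that a type can exceed it without being the highest) counted the following. Of the 62 described genes, 57 passed the filter on low counts, which a gene can pass through a single type. The 57 include Unc50, Unc5cl and Plxna4os1, which belong to no guidance family. Endothelial cells were higher for 27 of the 57 (14.2% of all 14132 genes tested were called in this way), fibroblasts for 25 (17.5% of all genes), mesothelial cells for 25 (15.3%), SMCs for 18 (16.6%), myeloid cells for 12 (16.8%) and lymphocytes for 8 (17.0%). Lymphocytes were lower for 33 of the 57 (21.8% of all genes), myeloid cells for 27 (16.7%), endothelial cells for 12 (8.94%), SMCs for 12 (12.9%), fibroblasts for 7 (7.52%) and mesothelial cells for 7 (8.83%). The median log2 difference of the 57 genes was -2.16 in lymphocytes and -1.88 in myeloid cells, against -0.10 and -0.07 over all genes. Robo4, Sema3g, Sema7a, Efnb2 and Efna1 led in endothelial cells, with log2 differences of 8.68, 7.48, 5.31, 4.33 and 4.28. The value of Robo4 is a fitted one, because no UMI of it was counted in fibroblasts, myeloid cells or lymphocytes. Epha3, Ephb2, Robo1, Slit2 and Ephb3 led in fibroblasts, from 5.83 to 4.20. In SMCs, Unc5c (4.92), Sema5a (2.99), Sema3c (2.71), Sema3b (2.47) and Epha3 (2.27) led, although all but Unc5c had a higher level in another type. In mesothelial cells, Ephb1 (5.37), Ephb6 (4.68), Sema3e, Plxnb1 and Efna2 led. Plxna4os1 (5.76), Sema4a (5.41), Plxnc1 (3.78), Plxnd1 (3.33) and Nrp2 (2.84) led in myeloid cells, and Sema4d, Sema4a (2.66), Plxnc1 (2.65), Sema4b (2.23) and Ephb6 (1.37) in lymphocytes.

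SMCs, the cells of the media, were then compared with fibroblasts, those of the adventitia. Of the 57 genes, 8 were higher in SMCs and 24 were lower, with a median log2 difference of -0.76, while 10.4% of all genes were higher and 14.8% lower with a median of -0.01. The genes that were higher in SMCs and had a mean of at least 10 CPM there were Unc5c, Sema3f, Efnb2 and Sema5a, the last with a log2 difference of 1.08 ± 0.10 (SE, adjusted p = 1.2e-07). Those with the largest differences the other way were Ephb2 (-4.24), Ephb3 (-3.35), Sema6d (-3.30), Slit2 and Epha3. SMCs had less of both Slits, both neuropilins (Nrp2 at -1.74), 3 netrins (Ntn1, Ntn3 and Ntn4) and 4 of the Eph receptors (Epha3, Epha4, Ephb2 and Ephb3) than fibroblasts.

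Endothelial cells had 25 of the 57 genes higher and 13 lower than SMCs, with a median of 0.62, while 15.3% of all genes were higher and 14.6% lower with a median of -0.03. Sema3g (log2 difference 9.17 ± 0.41 SE, adjusted p = 1.37e-11), Robo4 (log2 difference 8.32 ± 0.56 SE, adjusted p = 2.61e-08), Sema7a (6.02), Sema6a (5.63) and Sema6d (5.07) differed most among those higher, and Sema3c, Unc5c (-4.97), Sema5a, Slit3 (-4.37) and Sema3b among those lower. Between endothelial cells and fibroblasts, 22 genes were higher and 18 lower (11.3% and 14.4% of all genes), with medians of 0.05 over the guidance genes and -0.02 over all genes. Robo4, Sema3g (6.90), Sema4d, Sema7a (4.86) and Efnb2 (4.17) led upward, and Epha3 (-6.25), Ephb2 (-6.05), Slit3 (-5.89), Sema3c (-5.74) and Sema3b (-5.52) downward. The 3 pairwise comparisons share their sums, so they are not independent. Endothelial and SMC levels are also those of cells of different depth, with median UMIs of 3672 and 3024 against 7724 and 7487, so the fits were repeated in cells with 5000 to 25000 UMIs. There, Sema4c (0.80) and Ntn1 (0.88) no longer passed between endothelial cells and SMCs, and Ephb2 was at 0.014 in place of -1.81. Between endothelial cells and fibroblasts, Plxnb1 (-0.76) no longer passed and Unc5c turned to 0.68. Only called genes chosen by rule were followed. These cells were clustered anew, and their endothelial type held a subcluster of 29 and 14 cells with an SMC marker sum of 35953 CPM, against 2245 CPM of endothelial markers. Its part in these values was not tested.

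**Figure D2:**
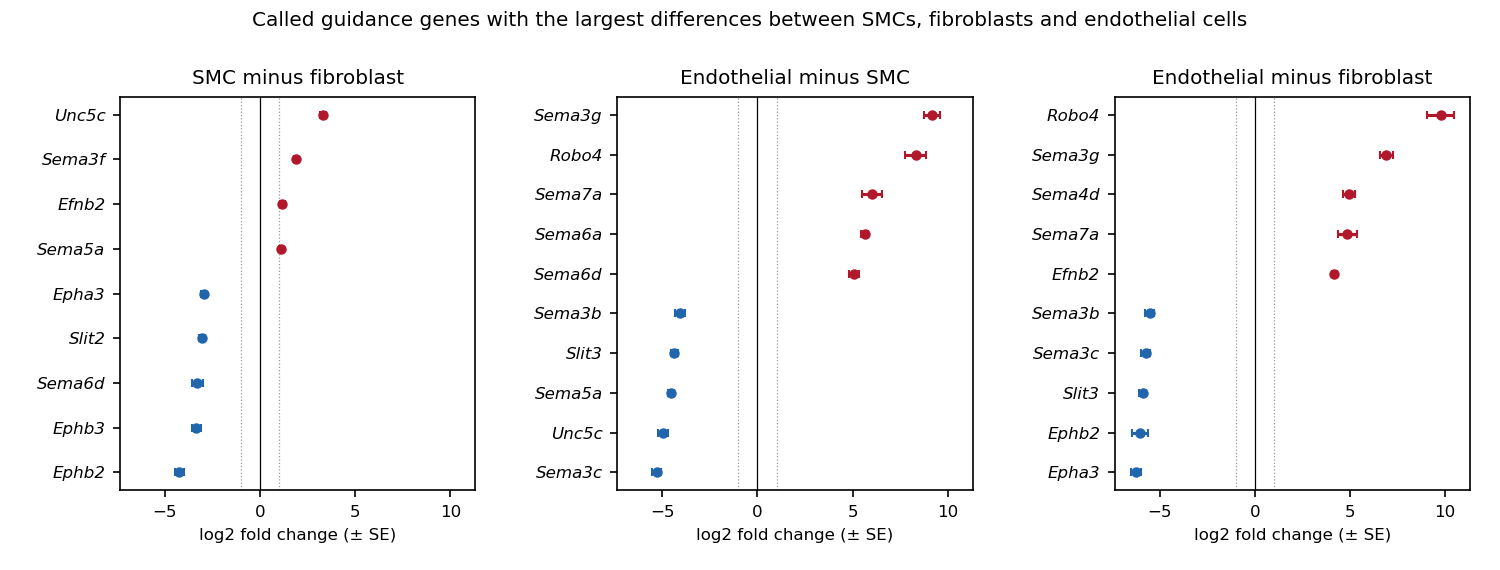
Log2 fold change (x axis, error bars ± SE of the edgeR fit on 2 aortas) of the called guidance genes with the largest differences in 3 comparisons, among those with a mean of at least 10 CPM in the higher type; dotted lines mark a log2 fold change of 1 in either direction. Red points are higher in the first type and blue points lower, and the values run from -6.25 for Epha3 to 9.75 for Robo4, the latter a fitted value against fibroblasts without any UMI of the gene.

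SMCs fell into subsets that differ in guidance genes. Subclustering, again without the guidance genes, gave 3 large sets named from transcription factor markers and a small set of small-vessel mural cells with Kcna5 and Olfr558. The large sets carry Hand2 and Tbx20 (653 and 374 cells), Dlx6 and Msx2 (478 and 416 cells) or posterior Hox genes (456 and 411 cells), and the mural set has 66 and 56 cells. Where along the vessel these cells lay was not recorded. A further subcluster of 471 and 278 SMCs with median UMIs of 1789 and 1735.5 and 3 smaller ones stayed unnamed. The SMC marker sum of the Dlx6 and Msx2 set was 24386 CPM, against 47099 and 45494 CPM in the Hand2 and Tbx20 and the posterior Hox sets. Its fibroblast marker sum was 979.7 CPM, against 533 and 587 CPM, and the part of these marker differences in the results was not tested.

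Sema3a, a repellent of axons and a ligand of neuropilin-1, was highest, among the named SMC sets, in the posterior Hox set. Its level there was 23.5 and 26.4 CPM, against 1.1 and 0.609 CPM in the Hand2 and Tbx20 set and 0.275 and 1.28 in the Dlx6 and Msx2 set. Against the Hand2 and Tbx20 set this was a log2 difference of 4.64 ± 0.34 (SE, adjusted p = 1.08e-07). An unnamed subcluster of 70 and 68 SMCs with a median of 1877 UMIs was at 34.8 and 64.4 CPM, from 5 and 9 UMIs of the gene, and the larger unnamed one at 5.89 and 10.1 CPM. Sema3e was also highest in the posterior Hox set at 6.2 and 5.03 CPM, against 0.157 and 0.609 CPM in the Hand2 and Tbx20 set, and without a UMI in the Dlx6 and Msx2 set, where 3 UMIs over both aortas put the posterior Hox level at least 12.6-fold higher. Epha3 was at 24.4 and 24.1 CPM against 5.34 and 6.39 CPM in the Hand2 and Tbx20 set, and Ntn4 at 18.6 and 18.1 CPM against 5.34 and 8.22 CPM. These 4 genes were the ones higher in the posterior Hox set than in the Hand2 and Tbx20 set, out of 41 tested. None was called lower by edgeR, where 9 had an unadjusted p under 0.05, or by DESeq2. Of all 11525 genes tested, 0.694% were higher and 0.659% lower. A gene can pass the filter on low counts through a single set.

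The Dlx6 and Msx2 set stood further apart. Sema3c was at 495 and 417 CPM there, 82.8 and 116 CPM in the Hand2 and Tbx20 set and 114 and 123 in the posterior Hox set. Sema3d was at 171 and 194 CPM, against 63.4 and 69.1 and 68 and 64.4 CPM in those sets. For both ligands the lowest Dlx6 and Msx2 value was above every value of the other 2 sets. Against the Hand2 and Tbx20 set, Sema3c had a log2 difference of 2.02 ± 0.12 (SE, adjusted p = 5.43e-10) and Sema3d had a log2 difference of 1.26 ± 0.12 (SE, adjusted p = 1.55e-07).

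Other ligands and receptors of that set were higher or lower. Nrp1 was at 72.7 and 79.7 CPM against 19.6 and 35.9 CPM in the Hand2 and Tbx20 set, Epha3 at 26.4 and 49.2 CPM, Efna1 at 13.5 and 11.9 CPM against 2.99 and 2.74 CPM, and Slit2 at 8.27 and 13.8 CPM against 1.57 and 1.83 CPM. The log2 differences were 2.48 for Epha3, 2.47 for Slit2, 1.91 for Efna1 and 1.34 for Nrp1. Slit3, in contrast to Slit2, was lower at 21.5 and 28.9 CPM against 76.2 and 78.8 CPM, a log2 difference of -1.84 ± 0.15 (SE, adjusted p = 2.85e-08), and Unc5c was lower at 37.2 and 27.6 CPM against 53.3 and 67.3 CPM (log2 difference -1.06 ± 0.15 SE, adjusted p = 2.21e-05). In all, 10 of 41 genes were higher and 3 lower than in the Hand2 and Tbx20 set (6.37% and 4.12% of all genes).

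Against the posterior Hox set, the Dlx6 and Msx2 set had 13 genes higher and 4 lower (6.68% and 4.18% of all genes). Sema3c (1.78), Efna1 (1.65), Slit2 (1.43), Unc5b (1.40) and Sema3d (1.29) were higher with means of at least 10 CPM. Sema3a (-5.15), Ntn4 (-1.72) and Slit3 (-1.66) were lower, as was Sema3e. Genes higher in SMCs than in fibroblasts that did not pass the threshold between any pair of these 3 sets included Sema3f (49.5 and 52.4, 51 and 46.9 and 48.7 and 47.8 CPM in the Hand2 and Tbx20, Dlx6 and Msx2 and posterior Hox sets) and Sema5a (91.8 and 91, 101 and 105 and 71 and 74.7 CPM). For Sema5a the posterior Hox set was below the Hand2 and Tbx20 set by less than the fold limit, at a log2 difference of -0.37 ± 0.10 (SE, edgeR adjusted p = 0.0385).

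The small-vessel mural cells differed from the mean of the 3 large sets in 4 genes upward and 3 downward (3.16% and 2.62% of all genes). Ntn4 was at 96.3 and 44.9 CPM, a log2 difference of 3.05 ± 0.30 (SE, adjusted p = 7.8e-07), although the 2 aortas were far apart. Nrp1 at 125 and 144 CPM, Plxnd1 at 21.8 and 22.5 CPM and Slit3 at 129 and 94.3 CPM were the others higher, with log2 differences of 1.77, 1.76 and 1.17. Sema3c at 34.5 and 44.9 CPM, Sema3d at 12.7 and 38.2 CPM and Efna5 at 25.4 and 35.9 CPM were lower, with log2 differences of -2.12, -1.90 and -1.43. The sums of this set held 550292 and 445149 UMIs, so 3 UMIs correspond to 5.45 and 6.74 CPM.

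**Figure D3:**
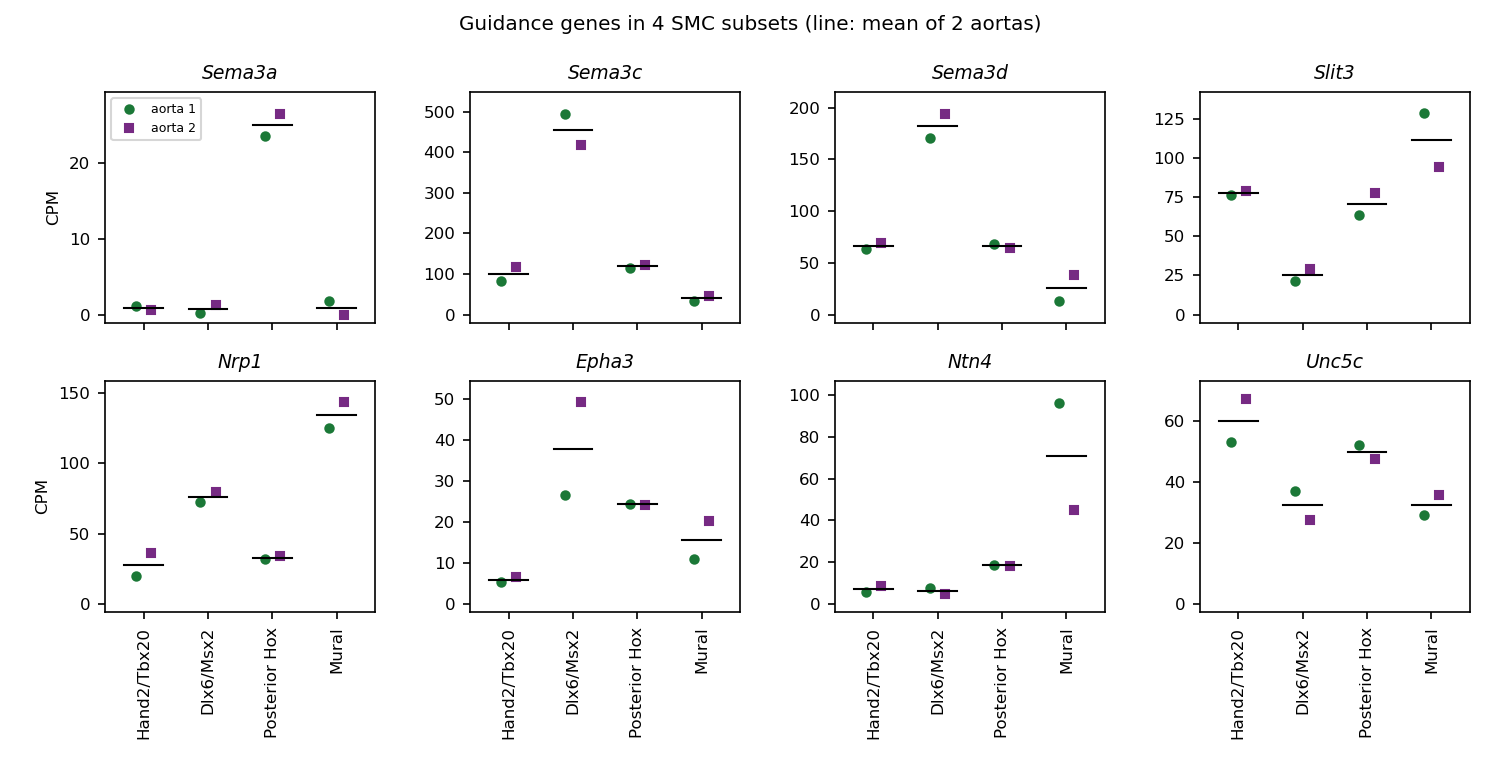
Level in CPM (y axis, from 0) of 8 guidance genes in the Hand2 and Tbx20, Dlx6 and Msx2, posterior Hox and small-vessel mural sets of SMCs; circles are aorta 1, squares aorta 2 and lines the mean. Of the 4 sets shown, Sema3a is highest in the posterior Hox set at 23.5 and 26.4 CPM, Sema3c and Sema3d are highest in the Dlx6 and Msx2 set, and Slit3 is lowest there.

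Endothelial cells were divided further still. Of their subclusters with at least 20 cells in each aorta, 2 were named from markers: a set with Gkn3 (121 and 135 cells) and lymphatic-like cells (46 and 75 cells), which are not part of the luminal lining. The other 5 stayed unnamed and are called by leading genes: Nkx2-3 and Cyp1b1 (216 and 226 cells, with hemoglobin transcripts leading), Cst6 and Aqp1 (124 and 103), Emcn and Nrg1 (129 and 78, with the fibroblast genes Dcn and Lum leading), Jag2 and Igf2 (100 and 53) and Fabp4 and Gpihbp1 (38 and 49). Genes that vary with the guidance genes were still used in forming these groups.

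The lymphatic-like cells differed from the Gkn3 set in the neuropilins. Nrp2, a receptor of lymphatic endothelium, was at 607 and 544 CPM in them and without a UMI in the Gkn3 set, a difference of at least 182-fold with 3 UMIs over both aortas as the limit. Nrp1 was the reverse, at 0 and 8.12 CPM in lymphatic-like cells and 661 and 725 in the Gkn3 set (log2 difference -7.26 ± 0.40 SE, adjusted p = 5.19e-55). Both groups of cells were apart in each aorta for both receptors.

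The ligands showed the same division. Sema3d was at 465 and 633 CPM and Sema3a at 179.7 and 211 CPM in lymphatic-like cells, and neither had a UMI in the Gkn3 set, so that the differences were at least 173-fold and 61.7-fold. Sema4c, at 55.8 and 69 CPM against 8.44 and 12.6 CPM, and Sema6a, at 309.8 and 256 CPM against 57 and 56.9 CPM, were higher too, Sema4c with a log2 difference of 2.32 ± 0.53 (SE, adjusted p = 8.62e-05) and Sema6a with a log2 difference of 2.05 ± 0.27 (SE, adjusted p = 1.03e-12). Ephb4, the venous receptor, was at 142 and 166 CPM against 46.4 and 31.6 CPM (log2 difference 1.76 ± 0.33 SE, adjusted p = 1.19e-06).

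Lower in lymphatic-like cells were Efna5 (12.4 and 8.12 CPM against 217 and 217 CPM; log2 difference -4.64 ± 0.44 SE, adjusted p = 3.65e-22), Epha4 (6.2 and 24.3 CPM against 154 and 149.6 CPM; log2 difference -3.35 ± 0.42 SE, adjusted p = 2.81e-13), Efnb2 (99.1 and 146 CPM against 399 and 278 CPM; log2 difference -1.65 ± 0.24 SE, adjusted p = 3.13e-10), Sema3g (0 and 4.06 CPM against 35.9 and 31.6 CPM) and Sema7a (6.2 and 4.06 CPM against 46.4 and 33.7 CPM). Through either set a gene can pass the filter on low counts, and of the 24 tested, 7 were higher and 9 lower (10.6% and 11.8% of 6112 genes). With DESeq2 4 were lower, and Sema3g and Sema7a were among those that no longer passed. The sums of the lymphatic-like cells held 161410 and 246456 UMIs, so that 3 UMIs correspond to 18.6 and 12.2 CPM.

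The unnamed subclusters had peaks of their own, given here as levels without a test between pairs. Sema3g was at 413 and 437 CPM in the Jag2 and Igf2 cells, of which it was a leading gene, against means of 2.03 to 37.7 in the other 6 subclusters. Nrp1 reached 1505 and 1471 CPM and Ntn4 399 and 358 CPM in the Emcn and Nrg1 cells, whereas Nrp1 was 159.6 and 194 in the Jag2 and Igf2 cells and Ntn4 15.3 and 17.9 in the Fabp4 and Gpihbp1 cells. The Emcn and Nrg1 cells held a fibroblast marker sum of 2258 CPM, against 157 to 270 CPM in the other 6, and its part in these 2 levels was not tested.

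The Fabp4 and Gpihbp1 cells, whose leading genes are those of capillaries, held Robo4 at 176 and 170.5 CPM, Ephb4 at 207 and 188 CPM, Nrp2 at 222 and 242 CPM and Efnb1 at 45.9 and 153 CPM. Their myeloid marker sum was 1066 CPM, against 45.0 to 98.7 CPM in the other 6 subclusters, and its part in these levels was not tested; Nrp2 was highest in myeloid cells among the 6 types. Their Efnb2 was 115 and 71.8 CPM, the lowest mean of the 7 although the lymphatic-like cells were lower in aorta 1, against 382 and 326 CPM in the Nkx2-3 and Cyp1b1 cells. Robo4 had no UMI in those Nkx2-3 and Cyp1b1 cells (limit 3.88 and 3.91 CPM). Ntn1 was highest in lymphatic-like cells (397 and 321 CPM) and in the Cst6 and Aqp1 cells (282 and 362 CPM), which changed places between the aortas, and lowest in the Emcn and Nrg1 cells (69 and 75.1 CPM) and the Fabp4 and Gpihbp1 cells (61.2 and 89.7 CPM), which did so too. An F test over the 7 subclusters, added after the data had been seen, called 22 of 26 described genes, against 33.5% of all genes tested. A gene can pass the filter on low counts through the single subcluster where it is high, and the subclusters were formed from these same cells. The count is therefore not independent support, and the 26 include Unc50, which belongs to no guidance family. It did not call Sema4d, Sema6d, Unc5b or Unc50.

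**Figure D4:**
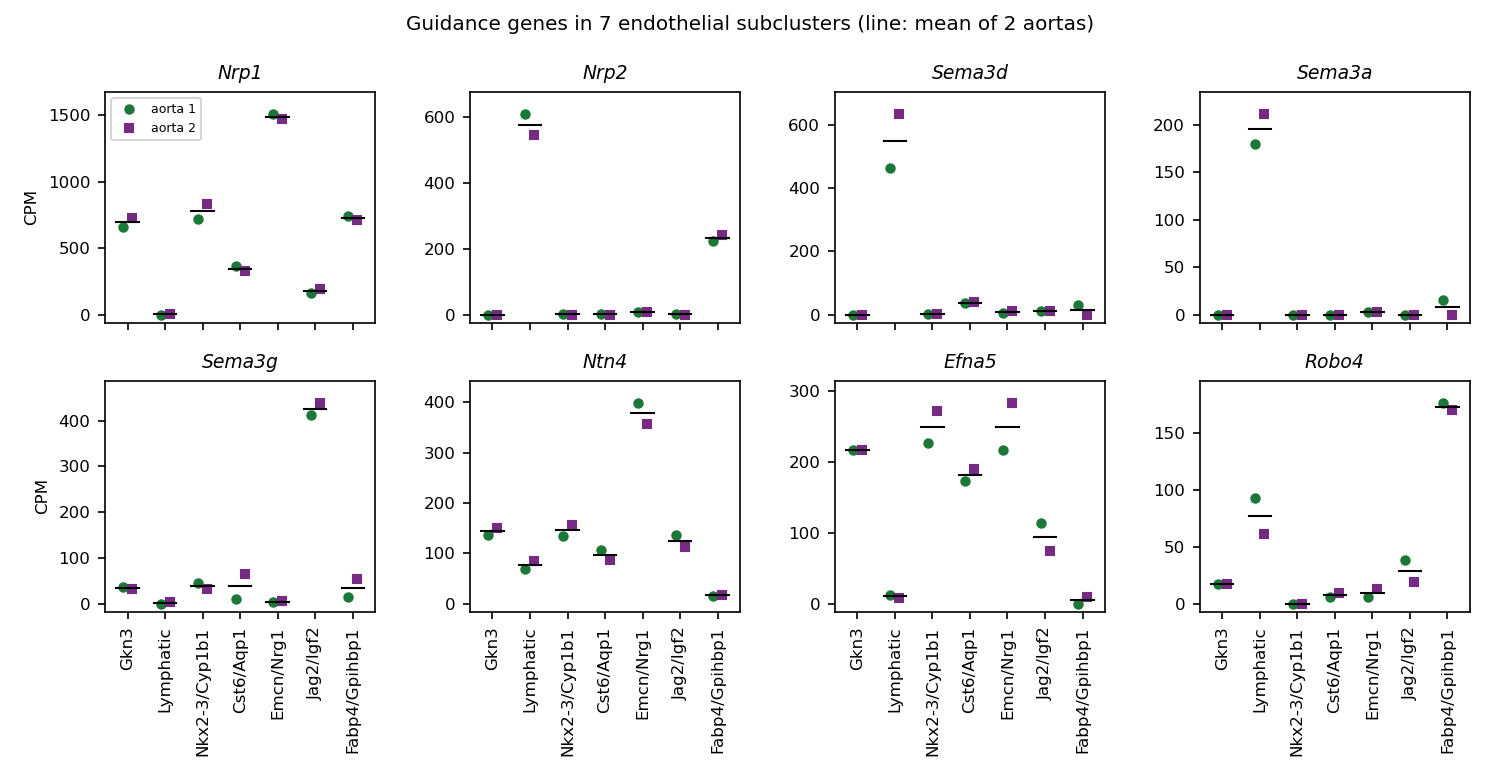
Level in CPM (y axis, from 0) of 8 guidance genes in 7 endothelial subclusters; circles are aorta 1, squares aorta 2 and lines the mean. Nrp1 is close to 0 in the lymphatic-like cells (mean 4.06 CPM), where Nrp2, Sema3d and Sema3a peak, Sema3g peaks in the Jag2 and Igf2 cells, and Robo4 in the Fabp4 and Gpihbp1 cells.

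The wider pathway was followed through 34 co-receptors, ligands and signal carriers, of which 30 were tested between types. Neo1, which encodes the netrin and RGM receptor neogenin, was at 80.2 and 75.4 CPM in SMCs, 54.6 and 51.7 in fibroblasts and 5.03 and 5.17 in endothelial cells. Flrt2, a ligand of Unc5 receptors, was at 131 and 164 CPM in fibroblasts and 4.45 and 5 in SMCs (log2 difference -4.82 ± 0.16 SE, adjusted p = 4.78e-13). Dpysl3 (CRMP4), a cytoskeletal mediator of semaphorin signals, was at 267 and 280.2 CPM in SMCs and 109 and 125 in fibroblasts (log2 difference 1.38 ± 0.13 SE, adjusted p = 1.69e-07).

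Between SMCs and fibroblasts, 4 of the 30 were higher and 11 lower, where 10.4% and 14.8% of all genes were. Endothelial cells had 8 higher and 7 lower than SMCs (15.3% and 14.6% of all genes), led by Fes (4.67), Chn1 (2.43) and Nck1 (2.26) upward and by Ngef (-4.98) and Neo1 (-4.19) downward, and 5 higher and 9 lower than fibroblasts (11.3% and 14.4% of all genes). Nck1 encodes an adaptor of activated Eph and other receptors, and was at 180.1 and 188 CPM in endothelial cells against 32.5 and 31.2 in SMCs. In the Dlx6 and Msx2 set, Farp1 (18.5 and 13.5 CPM against 2.04 and 0 CPM in the Hand2 and Tbx20 set), a mediator of plexin-A signals, Flrt2 and Ntng1 were higher, and Mical2, Vav3 and Rnd1 were lower, of 26 tested (6.37% and 4.12% of all genes). Of the same 26, 2 were lower (0.659% of all genes) and none was called higher in the posterior Hox than in the Hand2 and Tbx20 set (4 with an unadjusted p under 0.05 in edgeR, 0 by DESeq2), and none was called in mural cells by edgeR (4 higher and 3 lower at an unadjusted p under 0.05; 1 higher by DESeq2). In lymphatic-like cells 6 of 16 were higher than in the Gkn3 set (10.6% of all genes), among them Flrt3, Vav3 and Flrt2, and none was lower in edgeR or DESeq2, with 1 at an unadjusted p under 0.05 in edgeR. Flrt3 was at 80.5 and 28.4 CPM in lymphatic-like cells and had no UMI in the Gkn3 set, a difference of at least 17.2-fold.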

How the data were processed

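Single-cell RNA-seq counts of 2 aortas were used. The authors counted UMIs per gene and cell with Cell Ranger (cellranger 4.0.0) on mm10 with reporter sequences added, and the deposited counts are raw; the submitters' processing notes also name Seurat 4.0. Of 8947 and 6263 deposited cells (47009780 and 30919996 UMIs), those with at least 200 genes, 1000 to 25000 UMIs and at most 10% mitochondrial UMIs were kept (6744 and 4698), and 205 and 84 doublets called by Scrublet were removed. Cells were clustered with scanpy 1.11.5 (2000 variable genes without the guidance genes, 30 components, 15 neighbours, Leiden resolution 1, and 0.5 within SMCs and endothelial cells). Types were rebuilt from markers, so names may differ from the study's.

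Raw counts were summed by aorta and type, or by aorta and subset with at least 20 cells in each aorta, and tested with edgeR 4.0.16 (TMM, filterByExpr, quasi-likelihood F test, Benjamini-Hochberg adjustment over all genes) in R 4.3.3. Checked on simulated counts, the test recovered the changes put in. These counts had a fixed spread and no difference between aortas, and only genes well counted in every sum were changed. The check thus does not cover genes at few UMIs. With 2 aortas, which form 1 group, edgeR estimates the spread of a gene with information shared over all genes and sums of a fit. The size of a very small p-value is thus no measure of the spread between animals. Limits for a count of 0 (3 UMIs) cover counting error only. Types of 1 aorta come from the same animal and are paired by it, but the 15 pairs of types gave correlations of deviations from the type means of -0.00686 to 0.0913 (median 0.0555). A fit with the replicate block was an alternative, as were DESeq2 1.42.0, other cell filters and resolutions, no gene filter and each aorta left out.

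The guidance genes and gene lists were chosen with earlier results of these data known. Values are given for the gene of each family with the most UMIs, for genes with a mean of at least 50 CPM in their highest type, and per comparison for the 5 called genes with the largest change in each direction and at least 10 CPM in the higher group. Epha5, Unc5d and genes named only in counts were added after their values were seen. Gene coordinates and Ensembl identifiers follow GENCODE vM21 (GRCm38, the sequence of mm10).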

Additional observations from a re-analysis of the deposited data

Results flagged for a closer look

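UMIs of guidance genes were also counted in cells that entered no comparison. In 37 erythroid cells (255808 UMIs in all), 12 UMIs of Sema3c, 5 of Nrp1, 4 of Sema3d and 4 of Ntn1 were found, each above the 3 UMIs that a count of 0 allows. In 13 cells that received no name (17822 UMIs), 5 UMIs of Unc50 and 5 of Sema4d were found. Where these UMIs came from was not tested.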

How the results depend on the processing

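The cell types hold 2 aortas each, the small-vessel mural and lymphatic-like sets rest on few cells, and 3 UMIs there correspond to 5.45 to 18.6 CPM, so absence below that level could not be seen. The 22 counts of guidance genes recomputed under the alternatives stayed within 1.5 times the values given, apart from those named here. The counts lower than the mean of the other types and the counts of pathway genes were not recomputed. For the 0 genes lower in the posterior Hox than in the Hand2 and Tbx20 set, the count was 2 with no gene filter, 1 with doublets kept and 1 with the guidance genes allowed in clustering. For the 9 genes lower in lymphatic-like cells than in the Gkn3 set it was 4 with DESeq2, where Sema3g, Sema7a, Ntn4, Plxna2 and Plxnd1 no longer passed. With 1 aorta left out no spread remained and the fold limit alone was applied: the genes higher in SMCs than in fibroblasts were 5 to 8 (5 without aorta 2), those lower in the posterior Hox set 2 to 3, and those lower in the mural set 11 to 14 (11 without aorta 1, 14 without aorta 2). The 327 called log2 differences followed here are those of the 45 genes that the stated rules chose. Called differences of other genes were not followed. Of the 327, 174 moved by more than their standard error and 1 changed sign without aorta 1, and 160 moved by more than it without aorta 2. Values without an aorta came from log2 CPM with a small count added, not from the edgeR fit. The moves therefore join that change of method to the loss of an aorta. The replicate block gave 25 genes lower in SMCs than in fibroblasts and 19 higher in SMCs than the mean of the other types. It kept 326 of 327 called values and lost the call of Sema4b in the Dlx6 and Msx2 set. Of the called values of these 45 genes, 315 kept their call with DESeq2 and 12 did not. In cells with 5000 to 25000 UMIs 288 kept it and 21 did not, and with doublets kept 312 kept it and 13 did not. Those that turned were Ephb2 in endothelial cells against SMCs, at 0.0141 in cells with 5000 to 25000 UMIs and 0.0626 with doublets kept, Unc5c in endothelial cells against fibroblasts, at 0.68 in cells with 5000 to 25000 UMIs, and Plxnc1 in endothelial cells against SMCs, at -0.31 without aorta 1 and 2.28 without aorta 2; the cause was not tested. Leaving out mixed, small and low-UMI subclusters and fitting all endothelial subclusters were chosen after seeing the data; under the first, 265 called values kept their call and 9 did not, among them Nrp1 and Sema3d between endothelial cells and fibroblasts. Lymphatic-like cells were too few for a test among cells with 5000 to 25000 UMIs.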
